A study of Rattus norvegicus with 20 samples.

Results

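The comparison set every estrogen receptor ligand given in the study against the vehicle: the equal-weight mean of 5 compounds, measured on 16 arrays, against 4 vehicle arrays, with all 20 arrays of the series in use. Of 24562 probes tested, 13324 carried 1 gene symbol, and 47 of these passed at an adjusted p under 0.05 (0.353%). The change had the same sign under all 5 compounds at 45 of the 47 probes, which stand for 43 genes. Of these probes 38, for 36 genes, were lower in the treated arteries (0.285% of the probes with 1 symbol) and 7, for 7 genes, were higher (0.0525%). With quantile normalisation 22 were lower and 11 higher. Over all probes with 1 symbol, 24.7% were lower and 9.8% higher under all 5 compounds. The 5 changes share the 4 vehicle arrays and the 47 probes were chosen on their mean, which favours 1 sign. The direction and size under each compound chose these genes and are given as a description.

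Female Sprague Dawley rats had been ovariectomised at 4 weeks of age, before regular ovarian cycles, were left for 2 weeks and were then gavaged daily for 3 weeks, so that the arteries came from rats aged 9 weeks without ovaries. The vehicle group (4 arrays) received 20% 2-hydroxypropyl-β-cyclodextrin. Ethinyl estradiol (3 arrays), estradiol benzoate (3) and equilin (3) were given at 0.15 mg/kg, and tamoxifen (4) and raloxifene (3) at 3 mg/kg. Each array held RNA of the mesenteric arteries of 1 rat after veins and fat had been removed. The estrogens therefore differed from tamoxifen and raloxifene in dose, and every group, the vehicle group included, lacked ovaries. Individual rats are the replicates, and their number limits the precision of every value.

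Estrogen acts on arteries through receptors that are transcription factors, ESR1 and ESR2, which sit in endothelial and smooth muscle cells and either bind DNA themselves or act through other factors. Ethinyl estradiol is estradiol with an added ethinyl group, which slows its breakdown after oral dosing; estradiol benzoate is the ester of estradiol with benzoic acid; and equilin is an estrogen of the pregnant mare with an additional double bond in the steroid skeleton. Tamoxifen, a triphenylethylene, and raloxifene, a benzothiophene, are selective estrogen receptor modulators (SERMs), which act as agonists in some tissues and antagonists in others. The wall of a small artery holds endothelium, smooth muscle and an outer layer of fibroblasts that lay down collagen; in the adult most of these cells do not divide.

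The labels name no array batch, but 2 array sets were seen, split at the largest gap between the deposited array medians. Set A held vehicle array 1 and the 9 estrogen arrays (medians 1.0408 to 1.0612), and set B held vehicle arrays 2, 3 and 4 and the 7 arrays of tamoxifen and raloxifene (1.0007 to 1.015). A class of 384 regularly spaced probes without a symbol had median log2 levels of 0.685 to 1.84 in set A and of -2.18 to -1.38 in set B; of the 336 tested, 0 passed in the comparison by limma. The pooled change is therefore given also with the set as a block, which compares the estrogens with vehicle array 1 alone and the SERMs with vehicle arrays 2 to 4. Raloxifene array 3 stood apart, with a mean correlation with the other arrays of 0.8414 against 0.9186 to 0.9591 for the rest. Without it the comparison called 165 probes in place of 47, and 44 of the 44 member probes that were still tested passed. The count was also moved by over 1.5 times by leaving out vehicle array 1 (89 probes), vehicle array 2 (26), vehicle array 3 (15), estradiol benzoate array 3 (31), equilin array 2 (25), equilin array 3 (29) or tamoxifen array 1 (28).

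With the array set as a block, 136 probes with 1 symbol passed (1.02%), 29 of them lower and 107 higher, and 29 of the 45 members, for 28 genes, were among the calls: 24 of the 38 lower and 5 of the 7 higher. Of these 29 members, 28 had 1 sign under all 5 compounds with the block, Ntsr1 being the exception. Contrasts within each set, taken from 1 model over all 20 arrays with shared variances, called 3 members in set A, where 64 probes passed (0.48%), and 16 members in set B, where 21 passed (0.158%). When each set was fitted on its own arrays, a choice made after seeing the data, 4 members were among 60 calls in set A (0.45%) and 2 among 3 in set B (0.0225%); unadjusted, 1156 and 1168 probes passed. All 45 members had the same direction in both sets, which the choice of members favours. When the 16 treated arrays were instead taken as 1 group, which adds the differences among compounds to the error, 0 probes passed by limma and 1328 reached an unadjusted p under 0.05. The median change over all tested probes was -0.09 on the log2 scale and was not subtracted from the changes below.

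Of 26 tested genes of mitosis 6 passed, all lower. Top2a, the topoisomerase that untangles chromosomes before they separate, had log2 levels, relative to the array median, of 0.94, 1.40, 1.39 and 1.21 in vehicle arrays 1 to 4, while the treated arrays ran from -0.90 to 0.69 with a median of -0.21. All 16 treated arrays lay below all 4 vehicle arrays. Its change was -1.39 ± 0.15 (SE; 16 treated and 4 vehicle arrays; adjusted p = 0.00033), and -1.25 with the set block (adjusted p = 0.00203), and it passed without any single array. One unit of this log2 scale is a doubling of the intensity plus the offset.

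Mki67, the nuclear protein used as a marker of dividing cells, ran from 0.65 to 1.28 in the vehicle arrays (0.65, 1.09, 1.28 and 1.09) and from -1.24 to 0.39 in the treated arrays, with a median of -0.34. The groups did not overlap. The change was -1.32 ± 0.22 (adjusted p = 0.012; 0.0487 with the set block), and the call was lost without vehicle array 2 or 3 (adjusted p up to 0.0726). Nusap1, a spindle microtubule protein, had -0.52, -0.63, -0.47 and -0.45 in the vehicle arrays and -2.48 to -0.78 in the treated arrays (median -1.59), again without overlap. It fell by 1.01 ± 0.15 (adjusted p = 0.00902) and passed without any single array. Nusap1 was dim, with a mean intensity of 0.68 in the vehicle and 0.308 in the treated arrays, where the offset was 0.103. Cks2, a small subunit of the cyclin-dependent kinases, had 0.18, 0.53, -0.02 and -0.18 in the vehicle arrays and -1.72 to -0.14 in the treated arrays; 15 of the 16 treated arrays were below all vehicle arrays, and the change of -1.07 ± 0.16 (adjusted p = 0.01) also held without any single array.

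A further 5 members take part in cell division. Cenpw, a kinetochore protein, fell by 0.85 ± 0.13 (adjusted p = 0.01; no overlap), and Aspm, which organises spindle poles, fell by 0.90 ± 0.14 (adjusted p = 0.01; no overlap; 0.0726 without vehicle array 3). Cenpt, another kinetochore protein, fell by 1.18 ± 0.22 (adjusted p = 0.029; no overlap), but its adjusted p was 0.077 with the set block. The mitotic kinesin Kif20a (-0.84 ± 0.16, adjusted p = 0.033) and the cyclin Ccna2 (-0.78 ± 0.15, adjusted p = 0.0329) each had 15 of 16 treated arrays below every vehicle array, and with the set block their adjusted p was 0.105 and 0.0535. Cenpt, Kif20a and Ccna2 passed in 13, 12 and 9 of the 20 fits that each left out 1 array. A second probe of Cenpw changed by -0.34 and did not pass (adjusted p = 0.43).

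Over the whole list of 26 tested mitosis genes, 6 passed, all lower, 13 were lower and 3 higher at an unadjusted p under 0.05, and 16 were lower under all 5 compounds; the median change was -0.42, beside -0.13 over all probes with 1 symbol, of which 9.37% were lower and 4.29% higher at an unadjusted p, 24.7% were lower under all 5 and 9.8% higher under all 5. Kif2c (0.41), Ect2 (0.37) and Melk (0.34) were the 3 with positive changes at an unadjusted p, and their adjusted p was 0.246, 0.226 and 0.29. Of 16 tested genes of DNA replication, which precedes mitosis, 0 passed by limma and 3 were lower at an unadjusted p, with a median of -0.09. Summed over the mitosis list, intensity was 43.96 to 48.96 in the vehicle arrays and 32.14 to 48.66 in the treated arrays. In bulk tissue, fewer cells of a type and less RNA per cell cannot be told apart.

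The promoters of mitosis genes are known for CCAAT boxes, bound by the factor NF-Y, and for a cell cycle homology region with the letters TTTGAA, bound by complexes that hold these genes down in resting cells. The promoters of the 5 members with a role in cell division that hold both motifs are shown, since these genes passed together; each runs from 250 bases before to 50 after the transcription start in the RefSeq table of build GRCr8, 5′ to 3′ on the gene's strand, with both motifs in capitals, the first written CCAAT or, on the other strand, ATTGG, and the second written TTTGAA or, on the other strand, TTCAAA.
Top2a, chr10:84473044-84473343, minus strand: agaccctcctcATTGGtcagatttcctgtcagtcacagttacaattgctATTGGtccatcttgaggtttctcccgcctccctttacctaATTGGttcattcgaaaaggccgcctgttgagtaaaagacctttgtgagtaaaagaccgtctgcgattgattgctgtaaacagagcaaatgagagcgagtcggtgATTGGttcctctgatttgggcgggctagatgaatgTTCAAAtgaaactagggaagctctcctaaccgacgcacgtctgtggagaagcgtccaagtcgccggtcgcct
Cks2, chr17:13727470-13727769, minus strand: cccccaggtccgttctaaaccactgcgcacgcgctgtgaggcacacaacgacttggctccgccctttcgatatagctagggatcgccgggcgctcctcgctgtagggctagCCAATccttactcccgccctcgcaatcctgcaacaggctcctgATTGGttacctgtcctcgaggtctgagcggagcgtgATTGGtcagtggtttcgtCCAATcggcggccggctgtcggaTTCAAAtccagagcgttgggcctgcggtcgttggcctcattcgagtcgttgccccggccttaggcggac
Nusap1, chr3:127057045-127057344, plus strand: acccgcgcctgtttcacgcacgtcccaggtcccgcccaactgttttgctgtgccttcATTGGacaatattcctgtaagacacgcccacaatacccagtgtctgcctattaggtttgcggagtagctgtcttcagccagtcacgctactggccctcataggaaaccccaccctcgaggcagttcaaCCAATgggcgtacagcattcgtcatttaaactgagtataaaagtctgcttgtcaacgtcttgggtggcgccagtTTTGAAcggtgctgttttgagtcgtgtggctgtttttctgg
Aspm, chr13:53625334-53625633, plus strand: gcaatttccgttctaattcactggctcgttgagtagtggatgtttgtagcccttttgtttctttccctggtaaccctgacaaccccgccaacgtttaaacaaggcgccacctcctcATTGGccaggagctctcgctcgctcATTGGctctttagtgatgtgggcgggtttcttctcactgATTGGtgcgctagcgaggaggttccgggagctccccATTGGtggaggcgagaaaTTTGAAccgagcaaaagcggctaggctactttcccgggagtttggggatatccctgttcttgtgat
Mki67, chr1:199952544-199952843, minus strand: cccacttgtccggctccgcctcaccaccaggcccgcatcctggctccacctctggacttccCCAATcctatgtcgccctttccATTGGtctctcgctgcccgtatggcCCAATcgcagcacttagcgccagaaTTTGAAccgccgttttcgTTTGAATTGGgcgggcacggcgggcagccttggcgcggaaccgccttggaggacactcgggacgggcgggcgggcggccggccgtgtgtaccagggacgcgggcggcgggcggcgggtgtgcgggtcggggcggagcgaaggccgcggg
Top2a, Cks2, Aspm and Mki67 each have 4 CCAAT matches and Nusap1 has 2, and in Mki67 the motifs overlap at 1 place. Not shown are Kif20a, with 3 CCAAT matches and 0 of the other motif, Cenpw, with 0 and 1, and Cyp2e1, a higher member with no role in cell division, which has 1 of each. Searched on both strands, the motifs occurred together in 7.41% of all 33469 promoters, and 4 or more CCAAT matches in 0.675%. Among the mitosis genes with a promoter in the table, both occurred in 4 of the 5 that passed and in 9 of the 16 that did not, so the letters were shared by called and uncalled genes of the list. Of the 43 member genes, 28 had a promoter in the table, and the palindromic consensus of the estrogen response element, searched without mismatch, occurred in 0 of these 28 windows and in 9 of all 33469 (0.0269%).

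Collagen and other matrix genes formed the other large group of lower members. Col1a1, the main chain of type I collagen, passed at 2 probes. The probe with the smaller error had 4.23, 4.44, 4.41 and 4.53 in the vehicle arrays and 2.48 to 4.20 in the treated arrays (median 3.09), without overlap; it fell by 1.16 ± 0.14 (adjusted p = 0.0011; 0.00422 with the set block) and passed without any single array. The other probe had 6.59, 6.47, 5.93 and 5.91 in the vehicle arrays and 4.08 to 6.12 in the treated arrays, 14 of which were below every vehicle array, and its change was also -1.16 (± 0.19, adjusted p = 0.01; 0.0571 without vehicle array 2). Pcolce, which speeds the removal of the collagen propeptide, fell by 0.66 ± 0.13 (adjusted p = 0.0488), but with the set block its adjusted p was 0.113, and it passed in 5 of the 20 fits without 1 array.

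Tnc, Postn and Fn1 encode tenascin C, periostin and fibronectin, adhesive proteins that rise in remodelling vessel walls. Tnc passed at 2 probes, with -1.24 ± 0.25 (adjusted p = 0.0427) and -1.13 ± 0.17 (adjusted p = 0.01). At the latter the vehicle arrays had 0.74, 1.30, 1.63 and 1.72 and the treated arrays -0.71 to 0.79 (median 0.16), so that vehicle array 1, the lone vehicle array of set A, met the highest treated arrays; with the set block the change was -0.85 (adjusted p = 0.0332) there and -0.92 (0.155) at the former. The former passed in 7 of the 20 fits without 1 array and the latter in 19 (adjusted p = 0.051 without vehicle array 3). Postn had 7.05, 6.79, 6.63 and 6.49 in the vehicle arrays and 5.13 to 6.72 in the treated arrays (median 5.88), a change of -0.87 ± 0.15 (adjusted p = 0.0195; up to 0.0736 without vehicle array 2 or 3). Fn1 fell by 0.72 ± 0.14 (adjusted p = 0.0317; 0.0171 with the set block), with 15 of 16 treated arrays below every vehicle array, and passed in 12 of the 20 fits. A second Fn1 probe had a change of 0.02 ± 0.66 and did not pass (adjusted p = 0.99), an error too wide to tell whether the probes differ.

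A further 6 members are secreted into the matrix or act on it. Cthrc1, a secreted protein with a collagen-like repeat that appears in injured arteries, fell by 0.96 ± 0.15 (adjusted p = 0.01). Cpxm1, a secreted member of the carboxypeptidase family, and Ssc5d, a soluble scavenger receptor, each fell by 0.90 (± 0.17 and ± 0.15; adjusted p = 0.028 and 0.0104), and Ssc5d did not overlap between the groups. Serpinf1, which encodes the anti-angiogenic factor PEDF and marks fibroblasts, had 7.32, 7.07, 7.28 and 7.12 in the vehicle arrays and 6.39 to 7.01 in the treated arrays, and fell by 0.57 ± 0.10 (adjusted p = 0.013; no overlap). Fndc1, with fibronectin type III domains, fell by 0.54 ± 0.11 (adjusted p = 0.0488), and A2m, a broad protease inhibitor, by 1.2 ± 0.24 (adjusted p = 0.0423; 0.125 with the set block). Under estradiol benzoate the change of Fndc1 was -0.05, where the median over all tested probes was -0.12. Fndc1 passed in 2 and A2m in 7 of the 20 fits without 1 array, while Cthrc1, Ssc5d and Serpinf1 each passed in 19, the exception being vehicle array 3 (adjusted p 0.051, 0.0726 and 0.0726), and Cpxm1 in 17, not without vehicle array 3 (0.14), vehicle array 4 or equilin array 2; with the set block its adjusted p was 0.0937. Other probes of Fndc1 (-0.73, adjusted p = 0.0976) and Pcolce (-0.80, adjusted p = 0.276) had the same direction and did not pass.

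Of the 24 tested genes of the list of fibrillar and associated collagens and their processing enzymes, 2 passed (Col1a1 and Pcolce), 12 were lower and 0 higher at an unadjusted p under 0.05 by limma, and 15 were lower under all 5 compounds; the median change was -0.40. Among those that did not pass, Col1a2, the partner chain of type I collagen, had -0.69 (adjusted p = 0.14), Loxl1, a crosslinking oxidase, -0.65 (0.0673) and Col14a1 -0.48 (0.094). The summed intensity of the list was 784.1 to 930.4 in the vehicle arrays and 495.8 to 738 in the treated arrays, so that the groups did not overlap. Of 25 matricellular and elastic fibre genes, 3 passed and 9 were lower at an unadjusted p, with a median of -0.33. Their summed intensity was 1600 to 2189 in the vehicle and 1239 to 2035 in the treated arrays, which overlapped, while the mean log2 level was 4.19 to 4.43 and 3.66 to 4.17, which did not; the collagen list had mean log2 levels of 4.00 to 4.16 and 3.33 to 3.89. Mfap4 (-1.02, adjusted p = 0.162), Eln, which encodes elastin (-0.48, 0.168), and Comp (-0.55, 0.11) did not pass. Of 10 basement membrane genes 0 passed by limma and 1 was lower at an unadjusted p, and of 14 matrix proteases and inhibitors 1 (A2m) passed, with medians of -0.33 and -0.32.

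**Figure D1:**
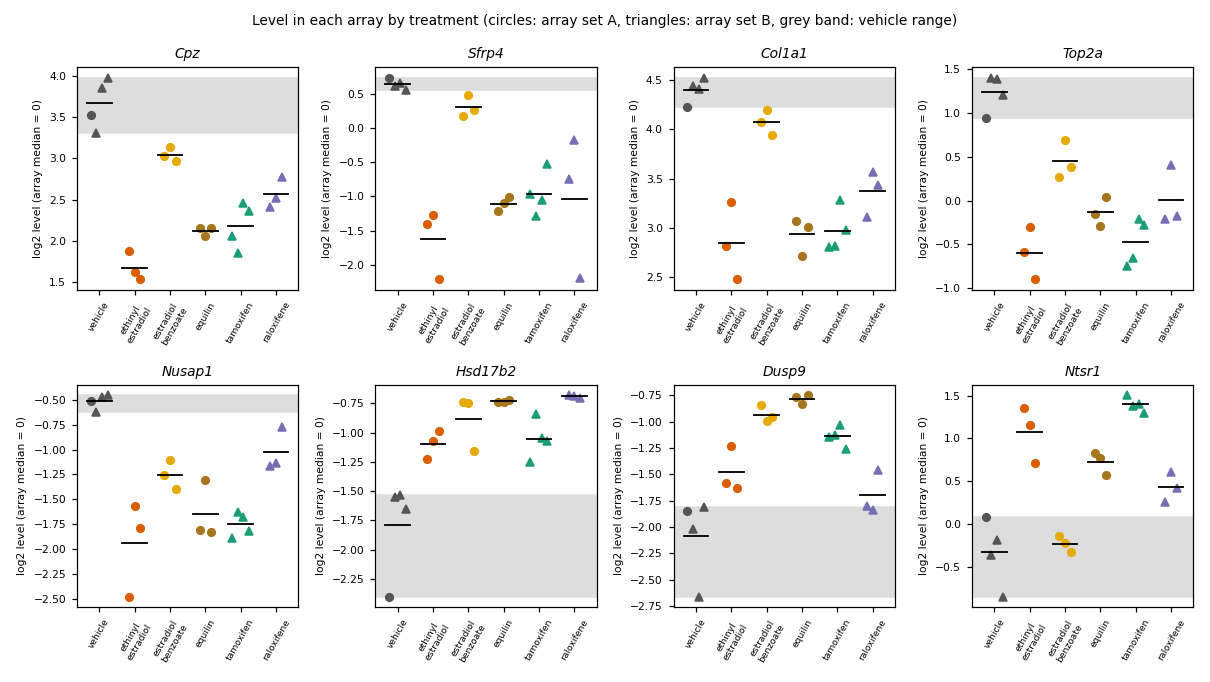
Log2 level relative to the array median (y axis) of 8 genes in each of the 20 arrays by treatment group (x axis), with circles for set A, triangles for set B, black lines for group means and a grey band for the range of the 4 vehicle arrays. For Cpz, Sfrp4, Col1a1, Top2a and Nusap1 all 16 treated arrays lie below the band and for Hsd17b2 all lie above it; Dusp9 and Ntsr1 have treated arrays that reach it.

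Of the secreted proteins of the Wnt pathway, Cpz, Sfrp4 and Wnt5b were lower. Cpz had the lowest adjusted p of the members. Cpz, a carboxypeptidase with a frizzled-like domain that can bind Wnt proteins, had 3.53, 3.31, 3.85 and 3.98 in the vehicle arrays and 1.53 to 3.14 in the treated arrays (median 2.26). Its change was -1.35 ± 0.13 (adjusted p = 0.00022; -1.28 and 0.00126 with the set block), without overlap, and it passed without any single array. Sfrp4, a secreted frizzled-related protein that captures Wnt ligands, had 0.74, 0.62, 0.66 and 0.57 in the vehicle arrays, a narrow range, and -2.22 to 0.49 in the treated arrays (median -1.03). It fell by 1.53 ± 0.25 (adjusted p = 0.01; 0.051 without vehicle array 3), and by 1.55 in set A and 1.61 in set B. Wnt5b, a ligand of the pathway, fell by 0.84 ± 0.17 (adjusted p = 0.0488; 0.0932 with the set block), passed in 5 of the 20 fits without 1 array and had another probe at -0.33 that did not pass (adjusted p = 0.54). Over the 26 tested Wnt genes 3 passed, 6 were lower at an unadjusted p and the median was -0.10, and Axin2, a general target of Wnt signalling through β-catenin, had 0.08 (adjusted p = 0.87).

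Other secreted or signalling members were also lower. C1qtnf5 and C1qtnf3, secreted proteins of the C1q and tumour necrosis factor family, fell by 0.86 ± 0.13 (adjusted p = 0.01) and 1.09 ± 0.19 (adjusted p = 0.0161). The first had 2.09, 2.13, 1.94 and 2.06 in the vehicle arrays against 0.60 to 1.93 in the treated arrays and passed without any single array; the second lost its call without vehicle array 2 or 4 (adjusted p up to 0.0722). Penk, the precursor of the enkephalin opioid peptides, had 3.21, 3.09, 3.10 and 3.27 in the vehicle arrays and 1.62 to 2.92 in the treated arrays (median 2.43). It fell by 0.85 ± 0.14 (adjusted p = 0.01; 0.0184 with the set block), without overlap. Fndc5, the precursor of the peptide irisin, fell by 0.78 ± 0.12 (adjusted p = 0.01; 0.0669 without vehicle array 3), also without overlap.

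Cish, the feedback inhibitor that growth hormone and cytokines induce through STAT5, had the largest fall and also the least even set of probes. The probe that passed had 2.24, 2.43, 3.45 and 3.07 in the vehicle arrays and 0.09 to 2.91 in the treated arrays (median 0.95), a change of -1.59 ± 0.31 (adjusted p = 0.0371; 0.11 with the set block), and it passed in 12 of the 20 fits without 1 array. Other probes of the gene changed by 0.40 and -0.06 and did not pass (adjusted p = 0.39 and 0.87). Its promoter is shown because it carries the STAT motif, TTCNNNGAA (in capitals), 4 times, which 2 of the 33469 promoters do, while 8.87% carry it at all.
Cish, chr8:116850719-116851018, plus strand: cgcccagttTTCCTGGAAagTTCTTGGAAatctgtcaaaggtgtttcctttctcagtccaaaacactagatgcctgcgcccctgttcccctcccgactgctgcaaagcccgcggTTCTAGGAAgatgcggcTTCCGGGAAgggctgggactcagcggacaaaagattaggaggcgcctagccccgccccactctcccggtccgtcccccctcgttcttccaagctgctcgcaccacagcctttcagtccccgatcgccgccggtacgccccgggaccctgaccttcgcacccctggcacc
Of the 21 tested genes of the growth hormone, STAT5 and IGF list, 1 passed (Cish) and 4 were lower at an unadjusted p, with a median of -0.19. Igf1, a growth factor that STAT5 induces in liver, had a change of -1.17 ± 0.39 and did not pass (adjusted p = 0.195).

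The remaining 8 lower members are enzymes, membrane proteins and regulators. Smpd3, a sphingomyelinase, fell by 1.03 ± 0.19 (adjusted p = 0.025; 0.0122 with the set block), with another probe at -1.61 (adjusted p = 0.158). Alpl, the tissue-nonspecific alkaline phosphatase that permits mineral deposition, fell by 1.05 ± 0.21 (adjusted p = 0.0437; 0.0932 with the set block), but under raloxifene its change was -0.09 and 1 treated array lay above every vehicle array. Nrep, a regulator expressed in regenerating nerve, fell by 0.98 ± 0.19 (adjusted p = 0.0383; 0.0963 with the set block), and Xpnpep2, a membrane peptidase that cleaves bradykinin, by 0.93 ± 0.15 (adjusted p = 0.0111; no overlap). Ciita, the switch for class II antigen presentation genes, fell by 0.67 ± 0.13 (adjusted p = 0.0336; 0.0611 with the set block), while its other probe had 0.03 (adjusted p = 0.97). The vesicle protein Rab26 (-0.82 ± 0.17, adjusted p = 0.0488), the membrane protein Tmem229b (-0.63 ± 0.12, 0.0347) and the folate carrier Slc46a1 (-0.45 ± 0.08, 0.0309) completed the group. With the set block their adjusted p was 0.109, 0.0506 and 0.0487, and Smpd3, Alpl, Nrep, Xpnpep2, Ciita, Rab26, Tmem229b and Slc46a1 passed in 16, 8, 12, 19, 11, 4, 10 and 11 of the 20 fits without 1 array.

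Of the 7 higher members, most were measured near the floor of the assay. The mean deposited intensity in the vehicle arrays was 0.159 for Arsk, 0.169 for Dusp9, 0.23 for Hsd17b2, 0.272 for Tp63 and 0.386 for Marveld1, where the offset added before the logarithm was 0.103; with the lowest 60% of probes left out, 1 of the 7 was still tested and 0 of them passed. Hsd17b2, which oxidises estradiol to the weaker estrone, had -2.40, -1.55, -1.53 and -1.65 in the vehicle arrays and -1.25 to -0.68 in the treated arrays (median -0.79). It was the only higher member without overlap, with a change of 0.90 ± 0.14 (adjusted p = 0.01; 1.18 and 0.000369 with the set block), and it passed without any single array. The larger change with the block rests on vehicle array 1, the lowest vehicle array for Hsd17b2. Against that array the change in set A was 1.5, beside 0.71 in set B. Dusp9, a phosphatase that inactivates MAP kinases, rose by 0.88 ± 0.14 (adjusted p = 0.01), from -1.84, -2.01, -2.66 and -1.81 in the vehicle arrays to -1.84 to -0.75 in the treated arrays, and also passed without any single array. Tp63, a p53 family transcription factor of epithelia, rose by 0.94 ± 0.16 (adjusted p = 0.0141; 0.00149 with the set block), with 15 of 16 treated arrays above every vehicle array; its adjusted p was 0.051 without vehicle array 3. For Tp63 too vehicle array 1 was the lowest vehicle array (-2.20), and the changes were 1.55 in set A and 0.73 in set B.

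Ntsr1, a receptor for the vasoactive peptide neurotensin, had 0.09, -0.36, -0.19 and -0.85 in the vehicle arrays and -0.33 to 1.51 in the treated arrays (median 0.74). It rose by 1.01 ± 0.14 (adjusted p = 0.00689; 0.0172 with the set block) and passed without any single array, although under estradiol benzoate its change was 0.10. With the set block Ntsr1 did not have 1 sign under all 5 compounds. Its estradiol benzoate arrays (-0.14, -0.22 and -0.33) lay below vehicle array 1, the vehicle array of their set. Cyp2e1, a cytochrome P450 that oxidises ethanol and ketones, had the largest rise and a wide spread: 0.94, 1.33, -0.45 and 0.12 in the vehicle arrays and -0.52 to 4.41 in the treated arrays. The change was 1.99 ± 0.40 (adjusted p = 0.0423; 0.104 with the set block), a second probe gave 2.13 ± 0.44 (adjusted p = 0.0505), and the call was kept in 8 of the 20 fits without 1 array. Cyp2e1 also lacked 1 sign with the set block, its mean under estradiol benzoate (0.66) being below vehicle array 1 (0.94). Arsk, a lysosomal sulfatase (0.94 ± 0.19, adjusted p = 0.0427; 0.0768 with the set block), and Marveld1, a membrane protein (0.80 ± 0.16, adjusted p = 0.0371; 0.0284 with the set block), passed in 6 of 19 and 7 of 20 such fits. Other probes of Arsk (0.11) and Marveld1 (-0.20) did not pass (adjusted p = 0.74 and 0.45). These other probes were brighter, with mean log2 levels of 0.24 for Arsk and 5.76 for Marveld1. The probes that passed had -1.37 and -0.57, so the evidence for these genes rests on 1 dimmer probe each.

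In all, 18 of the 45 members showed no overlap between the treated and the vehicle arrays, 17 of them lower, where 0.645% of the probes with 1 symbol did so and 0.593% did so with the treated arrays lower; since the members were chosen on this contrast, nothing is read from that difference. Of the 45, 11 passed without any single array: Top2a, Cpz, Col1a1 (1 probe), Cks2, Nusap1, Cenpw, Penk and C1qtnf5 among the lower and Ntsr1, Hsd17b2 and Dusp9 among the higher. Without vehicle array 3, 13 of the 45 passed, the fewest for any array. Just outside the threshold, in order of adjusted p, lay a second probe of Cyp2e1 (0.0505), C1qtnf12 (0.0512), Clec9a (0.0512), Tmem86a (0.0517) and Nnat (0.055), and just inside it Pcolce, Rab26, Wnt5b and Fndc1 (0.0488 each). The 2 probes that passed without 1 sign were Cbr1, a carbonyl reductase (0.95 ± 0.18, adjusted p = 0.028), and Hsd11b2, which inactivates glucocorticoids (-1.03 ± 0.17, adjusted p = 0.0116). In each of these the exception was estradiol benzoate, with -0.11 for Cbr1 and 0.12 for Hsd11b2.

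**Figure D2:**
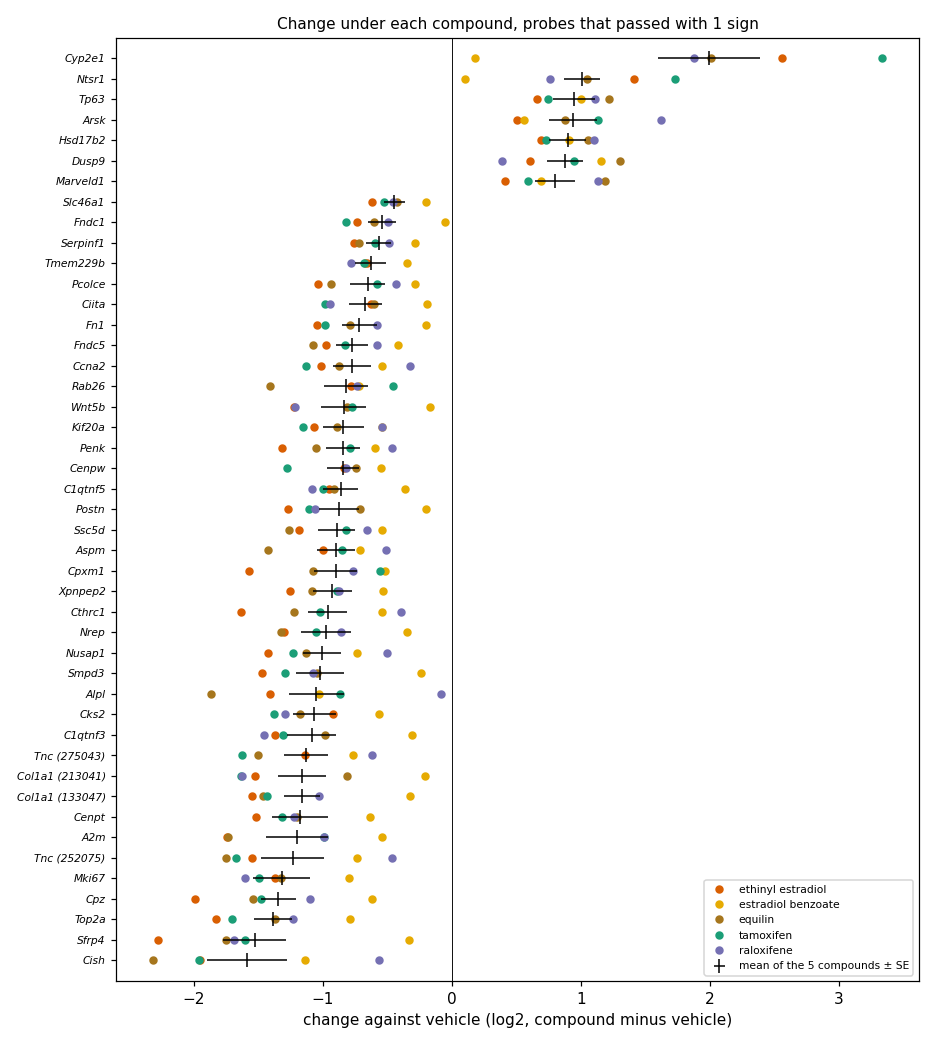
Change against vehicle (log2, x axis) under each of the 5 compounds for the 45 probes that passed with 1 sign (y axis), as coloured points, with the mean of the 5 compounds and its SE in black. Estradiol benzoate has the smallest change in 28 of the 38 lower probes; probe numbers stand beside genes with 2 probes.

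The size of the changes varied by compound. The median change over the 38 lower members was -1.27 under ethinyl estradiol, -0.54 under estradiol benzoate and -1.08 under equilin, all at 0.15 mg/kg, and -1.04 under tamoxifen and -0.78 under raloxifene at 3 mg/kg. Estradiol benzoate had the smallest change in 28 of the 38, and ethinyl estradiol the largest in 18. Tested against vehicle 1 compound at a time, 36 of the 45 members passed under ethinyl estradiol (1.16% of all probes with 1 symbol), 3 under estradiol benzoate (0.0826%), 40 under equilin (2.83%), 27 under tamoxifen (0.3%) and 22 under raloxifene (2.17%). No member passed under all 5, and all 45 passed under at least 1, by limma with p adjusted within each comparison. These 5 comparisons share the vehicle arrays. The 3 that passed under estradiol benzoate were Tp63, Hsd17b2 and Dusp9, all among the higher members. Each of these also passed under equilin (adjusted p = 0.0138, 0.0138 and 0.00806). The 7 higher members had medians of 0.66, 0.69, 1.19, 0.94 and 1.11 under the compounds in the same order.

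Compounds of 1 dose and 1 array set were compared directly, over 4 pairs with p adjusted over all pairs and probes, and these differences do not use the vehicle arrays. All 38 lower members were lower under ethinyl estradiol than under estradiol benzoate, with a median difference of -0.72, and all 38 were lower under equilin than under estradiol benzoate (-0.61), whereas the medians over all probes with 1 symbol were 0.03 and -0.07. The members share arrays and are not independent replicates of this difference. Ethinyl estradiol differed from estradiol benzoate at 4 of the 45 members (0.188% of all). Cpz differed by -1.37, ethinyl estradiol minus estradiol benzoate (95% confidence interval -1.78 to -0.96; adjusted p = 0.011), and Col1a1 at its probe with the smaller error (-1.22, -1.65 to -0.80; adjusted p = 0.03) and Sfrp4 (-1.94, -2.70 to -1.19; adjusted p = 0.049) were also lower, while Ntsr1 was higher (1.31, 0.87 to 1.75; adjusted p = 0.021). At an unadjusted p under 0.05 the count was 32 of 45 (9.73% of all). Equilin differed from estradiol benzoate at 1 member (0.0375% of all), Col1a1 at the same probe (-1.14, -1.57 to -0.72; adjusted p = 0.043), and at 33 before adjustment (3.65% of all).

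Between ethinyl estradiol and equilin 0 members passed by limma (0.105% of all), and 8 reached an unadjusted p under 0.05 (9.91% of all). The difference was -0.45 for Cpz (-0.86 to -0.04), -0.52 for Sfrp4 (-1.28 to 0.23) and -0.05 for Mki67 (-0.73 to 0.62); these intervals do not show that the compounds act alike. Between tamoxifen and raloxifene 0 members passed (0.015% of all), and 17 reached an unadjusted p (13.8% of all). Top2a was -0.47 (-0.90 to -0.05) and Sfrp4 0.08 (-0.63 to 0.79) under tamoxifen minus raloxifene, and Ntsr1, 0.97 (0.56 to 1.38), had an adjusted p of 0.086. An F-test over the 3 estrogens called 29 probes with 1 symbol (0.218%), of which 3 were members: Cpz (adjusted p = 0.00923), Col1a1 (0.0141) and Ntsr1 (0.0193). Over the 4 pairs, estradiol benzoate thus differed from ethinyl estradiol at 4 members and from equilin at 1. At no member did a difference pass between tamoxifen and raloxifene, while 2 other probes with 1 symbol did. The part of compound structure in these differences was not tested.

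**Figure D3:**
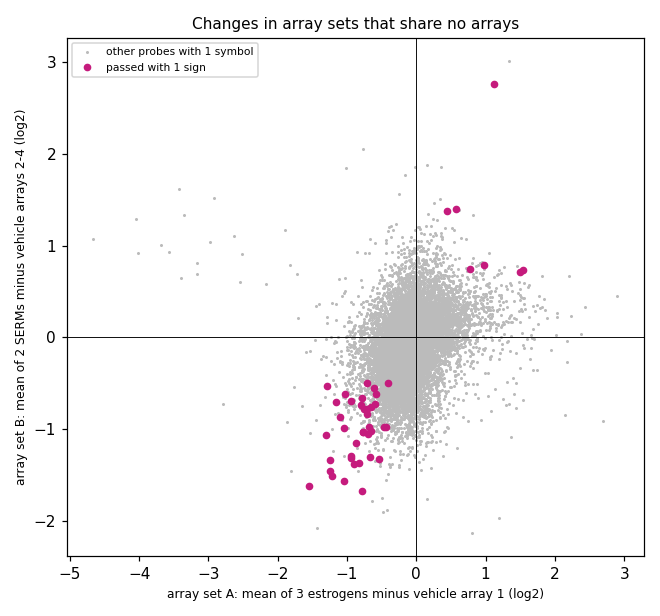
Change in array set A, 3 estrogens minus vehicle array 1 (log2, x axis), against change in set B, 2 SERMs minus vehicle arrays 2 to 4 (log2, y axis), for 13322 probes with 1 symbol; the 45 members are coloured. All members lie in the lower left or the upper right, which their choice favours.

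The array sets share no arrays, and probes ranked in set B alone were read in set A. Of the 100 lower probes used for this, 30 were members. When each set was fitted on its own arrays, the 100 probes with 1 symbol that were lower under the SERMs in set B with the lowest p were, in 85 cases, also lower under the estrogens in set A, where 64.7% of all 13322 probes were lower, and their median change in set A was -0.49 against -0.11 over all. The 100 higher in set B were higher in set A in 69 cases, where 35.3% of all were, with a median of 0.19. Across probes the changes in the sets had a Pearson correlation of 0.279 and a Spearman correlation of 0.351, a description over probes that are not independent. Set A rests on 1 vehicle array, so an error of that array enters all of its changes. Examples among the members that passed without any single array are given with set A first. The values were -1.25 and -1.34 for Cpz, -1.04 and -1.57 for Top2a, and -0.95 and -1.29 for Col1a1. Nusap1 had -1.10 and -0.87, Hsd17b2 had 1.5 and 0.71, and Ntsr1 was less even, with 0.44 and 1.38. These members were chosen on the pooled contrast of the same arrays, which favours 1 direction in both sets.

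The arteries carried the markers of their wall. Myh11, the smooth muscle myosin, had a mean intensity of 330.9 and Pecam1, of endothelium, 57.87, while the probe for Acta2, smooth muscle actin, read 0.8852 and is not informative. Genes of the adipocyte list were also bright although fat had been removed, with 313.1 for Car3, 294.7 for Cfd and 102.1 for Adipoq. Others of that list were dim, such as Lep (0.4222) and Ucp1 (0.6517). How much fat remained was not tested. Pancreatic acinar genes summed to 15.11 to 212.9 in the vehicle arrays and 8.54 to 1619 in the treated arrays, and 0 of the 21 tested passed by limma, with 0 at an unadjusted p. Of the cell type lists, the fibroblast list had 1 called gene of 17 (Serpinf1, lower), 5 lower at an unadjusted p and a median of -0.23; its summed intensity was 922.8 to 1183 in the vehicle and 730.2 to 1091 in the treated arrays. With the set block the median was -0.37. Among its genes Col14a1 had a change of -0.48 (adjusted p = 0.094) and Dcn, a defining gene of fibroblasts, -0.07 (0.79), while the Pdgfra probe was dim, with a mean intensity of 0.7192. The part of cell number in the lower matrix genes was not tested.

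Macrophage and dendritic cell genes, 21 tested, included 0 that passed by limma and 8 lower at an unadjusted p, with a median of -0.32 and sums of 544.7 to 900.1 in the vehicle and 466.2 to 671.8 in the treated arrays; Cd74 (-0.69, adjusted p = 0.125) and Tyrobp (-0.38, 0.16) were examples. Mast cell genes, 14 tested, included 0 that passed and 5 lower at an unadjusted p, with a median of -0.30. Their mean log2 level was 1.40 to 1.52 in the vehicle arrays and 0.90 to 1.45 in the treated arrays. Of 23 smooth muscle genes 0 passed and 5 were lower at an unadjusted p (median -0.20), of 19 endothelial genes 0 passed and 2 were higher (median -0.21), and of 19 adipocyte genes 0 passed and 2 were lower (median -0.02). Over all probes with 1 symbol, 9.37% were lower and 4.29% higher at an unadjusted p, and the median was -0.13. The adipocyte median lay above that value, and the endothelial list held 0 genes lower at an unadjusted p. The part of these cell types in the lower members was not tested.

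**Figure D4:**
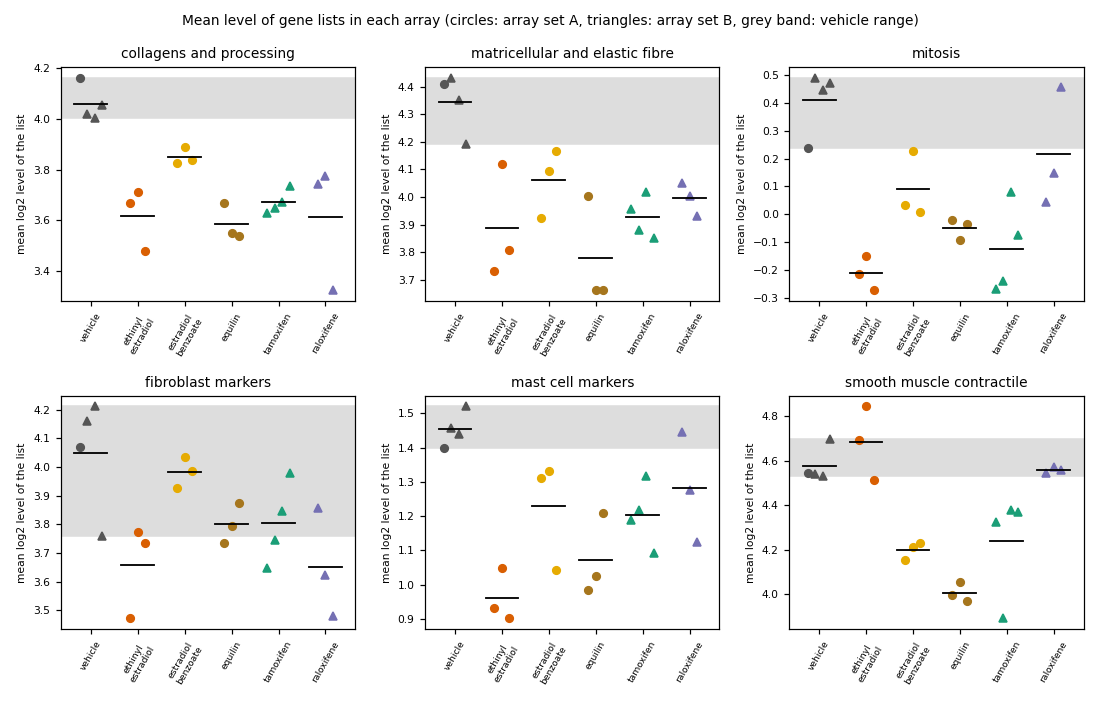
Mean log2 level of the tested genes of 6 lists (y axis) in each array by treatment group (x axis), with circles for set A, triangles for set B, black lines for group means and a grey band for the vehicle range. The collagen and the matricellular lists lie below the vehicle range in all 16 treated arrays; the mitosis, fibroblast, mast cell and smooth muscle lists have treated arrays inside it.

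Genes known to respond to estrogen in other tissues were read as a list. Of its 20 tested genes 0 passed by limma, 4 were higher and 1 lower at an unadjusted p, and the median was -0.02. Pgr, the progesterone receptor that estrogen induces in uterus, was higher under all 5 compounds with a pooled change of 0.28 ± 0.12 that did not pass (adjusted p = 0.3). The receptors had changes of -0.03 ± 0.15 (Esr1, adjusted p = 0.92) and 0.11 ± 0.11 (Esr2, 0.61). Nos3, the endothelial nitric oxide synthase, had -0.36 ± 0.19 (adjusted p = 0.39), and Me1, the cytosolic malic enzyme, a source of NADPH, had 0.65 ± 0.17 (adjusted p = 0.118) without 1 sign. Of 26 fatty acid synthesis genes 0 passed by limma, 6 were higher and 2 lower at an unadjusted p; their medians were 0.50 under ethinyl estradiol and 0.35 under equilin against -0.02 under estradiol benzoate, 0.04 under tamoxifen and -0.28 under raloxifene.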

How the data were processed

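Single-colour rat genome arrays were read. The deposited values are the authors' linear intensities, with array medians already close to each other and negative values kept; per the submitters' design text, slides were scanned with GenePix and read with the CodeLink Expression Analysis software, and the method of background subtraction is not stated in the labels used. Array medians spanned 0.085 on the log2 scale, so no normalisation beyond median centring was applied. Intensities at or below 0 were set to 0, 0.103 (0.1 times the median) was added, log2 was taken and each array was centred on its median; the offset understates changes of dim probes. Of 35129 probes, 40 with more than 1 missing value in a group and then the lowest 30% by mean were left out. In the platform annotation 16865 probes carry 1 symbol, 165 several and 18099 none.

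A model with 1 mean per group was fitted with limma 3.58.1 in R 4.3.3 (moderated variances with an intensity trend), with contrasts of group means and Benjamini-Hochberg adjustment over all 24562 tested probes; passed, fell and rose mean an adjusted p under 0.05. Errors are standard errors of a contrast. For each pair of compounds, 95% confidence intervals were not adjusted. Lists (40, with 786 of 1052 genes tested) are described by the brightest probe of each gene. The fits were also run on simulated arrays with known changes and independent noise. That simulation held no array sets, outlying arrays or differences among compounds, so it cannot tell how these affect the calls.

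Genes were named as up to 15 highest and 15 lowest members, up to 6 in each direction with the largest smallest change under a compound, up to 4 per list and 10 fixed genes; the other members are named because all members are accounted for, and list genes that did not pass were picked as examples after their values were seen. Members and lists were chosen with earlier results of these data known. Alternatives were other scalings, offsets, filters and weights, blocks, subsets of compounds, gene means and leaving out arrays.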

Additional observations from a re-analysis of the deposited data

Results flagged for a closer look

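Over the 104 groups of 4 arrays examined among the named genes, 3 held an array far from the other 3, and chance alone marks about 1 group in 20. For Hsd17b2, vehicle array 1 had a log2 level of -2.4 where the other vehicle arrays had -1.65 to -1.53; it is the lone vehicle array of set A, and Hsd17b2 also passed without it. For Postn, tamoxifen array 3 had 6.00 against 5.45 to 5.54 in the other tamoxifen arrays. For the Tnc probe with the smaller error, tamoxifen array 4 had -0.709 against -0.166 to -0.118 in the others.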

How the results depend on the processing

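Of the named genes' results under the alternatives, 1696 kept their direction and side of the threshold, 12 that passed neither before nor after changed sign (Myh11 in 8, Esr1 in 3 and Me1 in 1, none of them members), 494 kept the direction but no longer passed, 4 (all Me1, under quantile normalisation, within set A, and with tamoxifen or raloxifene out of the mean) passed where they had not, and 0 that had passed or then passed changed sign. Counts below are of probes with 1 symbol by limma, given as all, higher with 1 sign and lower with 1 sign, beside 47, 7 and 38. Quantile normalisation gave 37, 11 and 22, so that the share higher went up by over 10 percentage points. Leaving out the lowest 60% of probes gave 17, 0 and 16, with 102 higher with 1 sign at an unadjusted p under 0.05; 21 of the 45 members were still tested. Array weights gave 438, 135 and 281. The replicate block gave 29, 5 and 21. The array set block gave 136, 92 and 27, and 240, 135 and 80 without raloxifene array 3. Within set A the counts were 64, 63 and 1, and within set B 21, 5 and 16, as contrasts of 1 model over all arrays; fits on each set's own arrays, added after seeing the data, called 60 in set A and 3 in set B. Leaving ethinyl estradiol out of the mean gave 25, 6 and 19, estradiol benzoate 104, 15 and 88, equilin 29, 4 and 24, tamoxifen 74, 16 and 54, and raloxifene 112, 21 and 84. The 16 treated arrays as 1 group gave 0, 0 and 0, with 1328 at an unadjusted p. Means over the probes of a gene gave 73, 11 and 59 genes. Without both raloxifene array 3 and ethinyl estradiol array 3, a choice made after seeing the data, the counts were 273, 43 and 221. Leaving out each array in turn gave 15 to 165 in all, 4 to 26 higher and 10 to 134 lower. The cause of these moves was not tested.

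Among the 3 estrogens 29 probes passed the F-test; 16 did with no filter, 649 with array weights, 19 with the replicate block, 180 with the set block and without raloxifene array 3, 46 with gene means, 116 without both outlying arrays, and 9 to 171 without each array. With p adjusted within this comparison alone, tamoxifen against raloxifene called 1 probe, beside 2 when adjusted over the 4 pairs. With the former adjustment, array weights gave 797. The set block with or without raloxifene array 3, gene means and leaving out both outlying arrays each gave 0. Leaving out each array in turn gave 0 to 125, and unadjusted, 1839 probes passed. The replicate numbers did not pair the arrays: deviations from the group means correlated with a median of 0.02 over 46 same-numbered pairs (-0.425 to 0.297), and 5 of 20 arrays correlated best with their own number. At low intensity the offset limits what can be read of the higher members and of the dim lower members. The mean intensity in the vehicle arrays was 0.68 for Nusap1, 0.872 for Cenpw, 0.927 for Rab26 and 0.94 for Kif20a. Other lower members were bright, such as Serpinf1 (165).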

Other observations

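Il34, a ligand of the macrophage growth factor receptor, had the most even fall among the probes just outside the threshold: -0.84 under ethinyl estradiol, -0.78 under estradiol benzoate, -0.85 under equilin, -0.86 under tamoxifen and -0.96 under raloxifene, with a mean of -0.86 ± 0.18 (adjusted p = 0.055; 0.0635 with the set block). Gbp5, an interferon-inducible GTPase, was likewise even in the other direction, at 0.89, 0.82, 0.59, 0.91 and 0.84 in the same order, and did not pass (0.81 ± 0.18, adjusted p = 0.0709). These 2 genes were chosen after their values were seen. Genes of vascular calcium and potassium handling, 21 tested, included 0 that passed by limma and 8 lower at an unadjusted p, with a median of -0.25, and those of the interferon response, 31 tested, included 0 that passed, 2 higher and 1 lower at an unadjusted p, with a median of -0.12.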
